A study of Arabidopsis thaliana with 6 samples.

Results

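NAC domain transcription factors are represented by 87 of the 22746 probe sets tested on these arrays. They were chosen by the gene titles in the authors' deposited comparison table, as every probe set whose title holds the words no apical meristem, NAM family or NAC domain. A probe set is the group of short probes that reads 1 transcript, or a few alike. The samples were seeds of Arabidopsis thaliana, ecotype Columbia-0, with 3 wild-type samples and 3 samples of a mutant in the MADS-box gene AGL67 (agl67). All 6 samples shared 1 treatment. Seeds were held in water at 4 °C in the dark for 3 days, a step that breaks dormancy, and were then lit at 22 °C for 3 hours in a 5 µM solution of abscisic acid (ABA), which blocks germination. The labels call the samples biological replicates and describe neither the mutant allele nor the number of mutant lines, so effects of the locus and of 1 line cannot be told apart here.

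NAC proteins are transcription factors found only in plants. They share an N-terminal domain that binds DNA and pairs the proteins, named after the founding genes NAM, ATAF and CUC, and they differ in their C-terminal ends, which activate or repress transcription. Family members set the boundaries between organs in the embryo, carry responses to ABA and drought, drive senescence and cell death, and switch on the thick walls of vessels and fibres. Some are held at membranes until they are cut loose, and in seeds members act in seed coat and embryo development and in the control of germination by salt and sugar.

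Of the 87 probe sets, 4 could be paired with 1 gene: CUC2, RD26, NAC014 and AT3G56520. The other 83 carry only the family title in the tables used here, so they are given by probe set name and no role is assigned to them. In 4 of the 87 the name ends in _s_at, the maker's mark for probes that match more than 1 transcript, and 3 of these have the family title 2 times. The title words "nascent polypeptide-associated complex (NAC)", which belong to an unrelated ribosome-bound complex, occur in 7 probe sets, and the rule takes none of these.

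Some facts of the whole series bear on every value below. AGL67 itself read 8.79, 8.25 and 8.78 in wild type and 4.15, 4.30 and 3.66 in the mutant, in log2 units as throughout. It fell by 4.57 (limma adjusted p = 0.000887; exact permutation test, two-sided, p = 0.1, the smallest value that 3 against 3 allow). The third wild-type array stood apart, with a median over all probe sets of 3.80 against 3.97 to 4.00 on the other 5 arrays, and its correlations with the first and second wild-type arrays were 0.980 and 0.983, where those arrays reached 0.994 with each other. Of the seed markers 3 of 11 were measured, and these were high in every sample. The storage protein gene CRA1 and the late embryogenesis genes EM1 and EM6 read from 12.17 to 14.00. CRA1 was lower in all mutant samples, with a log2 change of -0.26 that did not pass (limma adjusted p = 0.245). The changes of EM1 and EM6 were 0.13 and 0.02 (adjusted p = 0.711 and 0.934). The flower markers AP1, AP3 and AG lay below the array median on all 6 arrays. Of the green seedling markers 2 of 5 were measured, and their summed log2 readings were 9.0 to 9.3 in wild type and 10.8 to 11.1 in the mutant. RCA, for Rubisco activase, rose by 1.29 (limma adjusted p = 0.0118), a call lost without any 1 of the mutant arrays (adjusted p up to 0.0841), and PSBO1, of photosystem II, had a log2 change of 0.51 (adjusted p = 0.0581). The only endosperm marker measured, the expansin gene EXPA2, had a log2 change of 0.84 (adjusted p = 0.127). No marker reads 0 on this scale, and the part of these cell types in the NAC values was not tested. With RNA from whole seeds, fewer cells of a type and less RNA per cell cannot be told apart.

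The comparison asks which NAC transcripts differ between agl67 mutant and wild-type seeds after 3 hours of ABA. Few were called, and a probe set that did not pass is not thereby shown to be alike in both genotypes. In the limma fit over all probe sets, 1 NAC probe set fell in the mutant, 262514_at, 1 rose, 264148_at, and 85 did not pass at an adjusted p under 0.05. That is 2.30% of the family, where 2.70% of all probe sets were called (1.93% higher and 0.778% lower), so the share of NAC probe sets called was near that of the whole array. The whole-array split of 438 higher and 177 lower became 593 higher and 449 lower when the arrays were brought to the same distribution by quantile normalization.

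The probe set that fell, 262514_at, read 8.86, 8.74 and 8.67 in the wild-type samples and 8.22, 8.19 and 8.04 in the mutant samples. Every mutant sample lay below every wild-type sample, and the gap between the groups was wider than the range within either. The means were 8.76 ± 0.10 (SD, n = 3) and 8.15 ± 0.10 (SD, n = 3), a log2 change of -0.61 (SE 0.11, 95% interval -0.85 to -0.36), or 1.52-fold lower (limma adjusted p = 0.0316). Its readings averaged the 90.7th percentile of an array. In the authors' deposited table its log2 ratio was also -0.61, with a false discovery rate of 0.0292, and it was the 1 NAC probe set called there, where 2.25% of all probe sets were called. The call held when the third wild-type array was dropped (-0.65 at an adjusted p of 0.00977) and was lost without any 1 of the other 5 arrays, at -0.64 to -0.55 and adjusted p of 0.0634 to 0.171.

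The probe set that rose, 264148_at, read 2.81, 3.01 and 2.94 in wild type and 3.62, 3.42 and 3.76 in the mutant. The groups did not overlap, but all 6 readings lay below the array median, at the 30.5th percentile on average, and whether they lie above background was not tested. The means were 2.92 ± 0.10 and 3.60 ± 0.17 (SD, n = 3), a log2 change of 0.68 (SE 0.12, 95% interval 0.40 to 0.97, adjusted p = 0.0345 in limma), which is a 1.60-fold higher reading. In the authors' deposited table the log2 ratio was 0.56 with a false discovery rate of 0.0696, so it was not called there at 0.05. It passed when the third wild-type array was left out (0.69, adjusted p = 0.0156) but not when any 1 of the other 5 was (0.60 to 0.77, adjusted p of 0.0690 to 0.171).

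**Figure D1:**
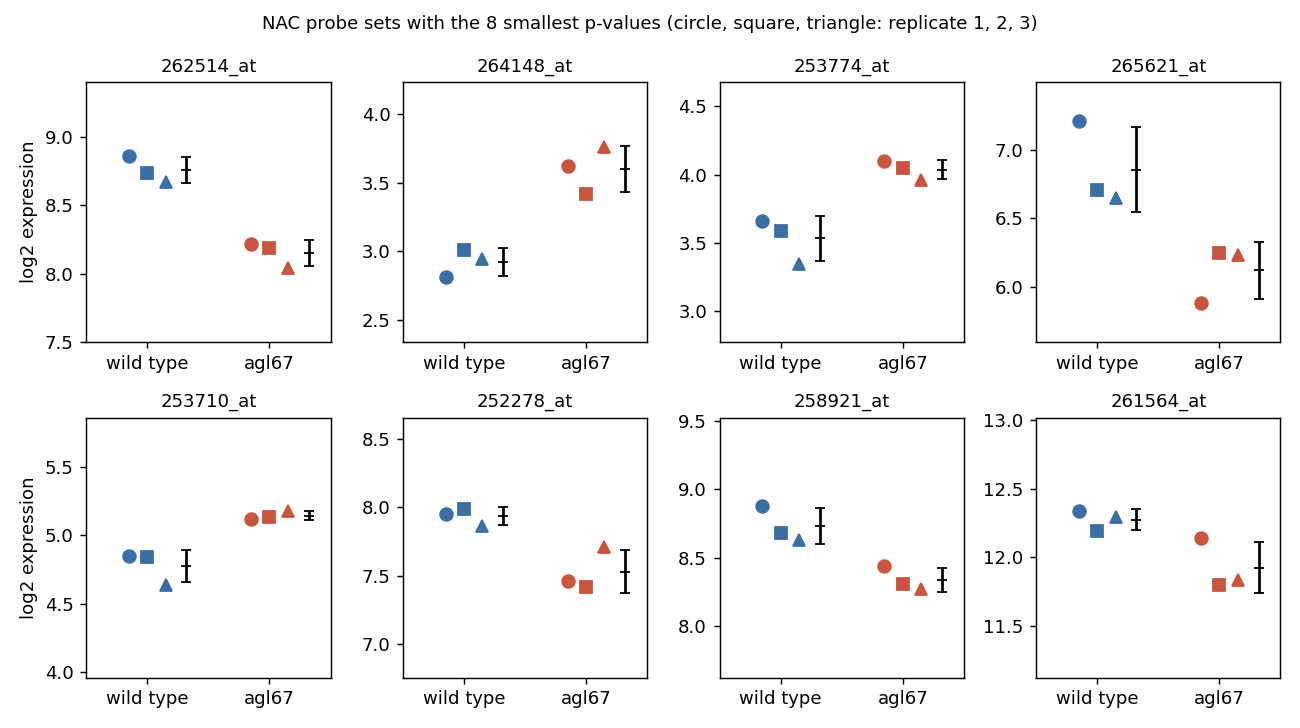
Log2 expression (vertical axis, each panel spanning the same number of log2 units) of the 8 NAC probe sets with the smallest p-values, in wild-type (blue) and agl67 (red) seeds; points are single arrays and black bars the mean ± SD of 3. In all 8 panels the groups do not overlap, which the choice by small p-value favours (24.0% of all probe sets do not overlap). The first 2 panels, 262514_at and 264148_at, are those that passed an adjusted p under 0.05.

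Another 12 probe sets had the next smallest p-values and did not pass. The first of them, 253774_at, read 3.66, 3.59 and 3.35 in wild type and 4.10, 4.05 and 3.96 in the mutant, a log2 change of 0.50 (95% interval 0.23 to 0.77, limma adjusted p = 0.0752). Its groups did not overlap, and the third wild-type array was the lowest of the 6, at -0.28 from the mean of the other wild-type arrays. Without that array the change was 0.41 and passed (adjusted p = 0.0461), and with array weights it was 0.44 and passed (adjusted p = 0.0330).

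The largest log2 change of the family in either direction, -0.74, belonged to 265621_at, which did not pass (95% interval -1.16 to -0.32, limma adjusted p = 0.0880). It read 7.21, 6.71 and 6.65 in wild type and 5.88, 6.25 and 6.23 in the mutant. The mutant samples were all lower, but the wild-type samples spread over more than the gap between the groups (SD 0.31). Without the third wild-type array the change was -0.84 and passed (adjusted p = 0.0217), and without the first wild-type array it was -0.56 and did not. It also passed with quantile normalization (-0.88, adjusted p = 0.0186), median centring (-0.81, adjusted p = 0.0365) and array weights (-0.76, adjusted p = 0.0245).

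Lower readings in all mutant samples were also seen for 252278_at, 258921_at and 261564_at, all of them above the array median on every array. The probe set 252278_at read 7.95, 7.99 and 7.86 in wild type and 7.46, 7.42 and 7.71 in the mutant, a log2 change of -0.41 (95% interval -0.67 to -0.14, limma adjusted p = 0.127). For 258921_at the readings were 8.88, 8.68 and 8.63 against 8.44, 8.31 and 8.27, a log2 change of -0.39 (-0.65 to -0.13, adjusted p = 0.134), which passed without the third wild-type array at -0.44 (adjusted p = 0.0492). The probe set with the highest mean reading of the family, 261564_at, stood at the 99.6th percentile of the array. It read 12.34, 12.19 and 12.29 in wild type and 12.14, 11.80 and 11.83 in the mutant, a log2 change of -0.35 (-0.64 to -0.07, adjusted p = 0.209 in limma). The first mutant sample of 261564_at lay within 0.05 of the second wild-type sample, so the groups barely part.

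Higher readings in all mutant samples were seen in 2 of the 25 NAC probe sets above the array median on every array, 253710_at and 249944_at. That is 8.0%, against 22.8% of all probe sets above the median on every array. Lower readings in all mutant samples were seen in 24.0% of the 25, against 10.8% of all such probe sets. These differences were not tested. The probe set 253710_at read 4.85, 4.84 and 4.64 in wild type and 5.12, 5.13 and 5.18 in the mutant, a log2 change of 0.37 (95% interval 0.13 to 0.61, limma adjusted p = 0.124). Its mutant samples were close together (SD 0.03), and the third wild-type array was again the lowest. The remaining 6 of these 12 probe sets had log2 changes between -0.29 and 0.24 and limma adjusted p from 0.292 to 0.429. Of these 6, 249944_at, 258809_at and no other lay above 0 (0.24 and 0.23), while 258813_at, 245934_at, 261022_at and 254698_at lay below (-0.22, -0.22, -0.29 and -0.19). The groups did not overlap in 249944_at, 258813_at and 245934_at and overlapped in the other 3. Over the array 24.0% of probe sets did not overlap, and choice by small p-value favours such probe sets.

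**Figure D2:**
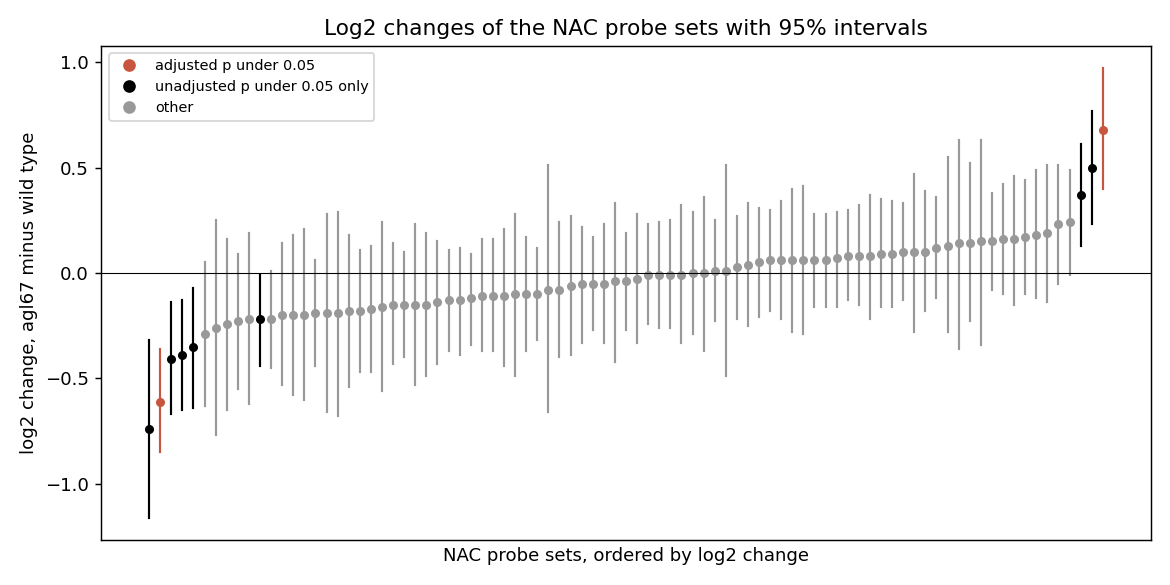
Log2 change of each of the 87 NAC probe sets (agl67 minus wild type, vertical axis) in order of size, with 95% intervals from limma. The changes run from -0.74 (265621_at) to 0.68 (264148_at); red marks the 2 that passed after adjustment and black the others with an unadjusted p under 0.05.

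The probe sets that could be tied to a gene, or that name one in their title, showed no change that passed. RD26, a NAC gene switched on by drought and ABA, read 4.96, 4.81 and 4.89 in wild type and 4.32, 4.90 and 4.84 in the mutant. Only the first mutant sample was low, the groups overlapped, and the log2 change of -0.20 (95% interval -0.58 to 0.18, limma adjusted p = 0.596) shrank to -0.02 without that sample. NAC014, a member of the group held at membranes, read 8.02, 8.22 and 8.34 against 8.32, 8.38 and 8.36, a log2 change of 0.16 (-0.10 to 0.42, adjusted p = 0.524). The first wild-type sample was the low one of NAC014 and the change was 0.08 without it. CUC2, which with CUC1 marks organ boundaries and starts the shoot meristem in the embryo, read 3.37, 3.30 and 3.28 in wild type and 3.17, 3.26 and 3.16 in the mutant. The CUC2 groups did not overlap, but all readings lay below the array median, and the log2 change was -0.12 (-0.34 to 0.09, adjusted p = 0.566 in limma) and 0.01 in the authors' deposited table. AT3G56520 read 2.38 to 2.97 in wild type and 2.43 to 2.73 in the mutant, with a log2 change of -0.10 that became 0.04 without the third wild-type array. Titles name NAC2 for 258385_at and NAC3 for 258395_at, but several genes have carried each of these names. Their log2 changes were 0.19 (-0.14 to 0.51, adjusted p = 0.563, and 0.04 without the third wild-type array) and -0.10 (-0.32 to 0.12, adjusted p = 0.641).

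Known NAC genes whose titles the rule does not match gave the same kind of values. CUC1 read 3.20, 3.32 and 3.08 in wild type and 3.15, 3.04 and 3.23 in the mutant, a log2 change of -0.07 (95% interval -0.32 to 0.19). NAC1, which acts in auxin-driven lateral root formation, read 3.80, 4.20 and 3.75 against 3.90, 3.68 and 4.16 (interval -0.40 to 0.40). TIP, named for its binding to a viral coat protein, read 8.92, 8.99 and 8.32 against 9.06, 8.95 and 8.92, a log2 change of 0.23 (-0.18 to 0.65) that was 0.03 without the third wild-type array. In each of these 3 the groups overlapped. The intervals still allow changes of the size seen in 253710_at for NAC1 and TIP, so they do not show that these genes were alike in both genotypes. Of 71 genes on a list of NAC genes with known roles, 6 were paired with a probe set, the 3 here and CUC2, RD26 and NAC014, and 0 passed in limma (each at an unadjusted p over 0.05).

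Most NAC probe sets gave low readings. On all 6 arrays 53 of 87 (60.9%) lay below the array median, against 44.2% of all probe sets, and 25 (28.7%) lay above it on all 6, against 45.1%, with 9 mixed. The family's median reading was 3.24, 3.32 and 3.35 on the wild-type arrays and 3.26, 3.19 and 3.24 on the mutant arrays. Readings of different probe sets depend on their probes, so this places them on the scale of the array and does not rank transcripts. The 8 highest mean readings, which were named by rule, ran from 8.45 to 12.10. Besides 261564_at, 249944_at, 258921_at and 262514_at these were 259705_at, 247351_at, 250849_at and 261192_at. Of these last, 259705_at read 10.96, 10.68 and 11.00 against 11.32, 10.93 and 10.82, and its log2 change of 0.14 (95% interval -0.23 to 0.52) became -0.01 without the first mutant array. For 247351_at the change was -0.22 (-0.62 to 0.19), with values from -0.38 (without the first mutant array) to -0.09 (without the first wild-type array) when 1 array was left out. For 250849_at it was -0.15 (-0.40 to 0.10) and for 261192_at -0.05 (-0.27 to 0.17). The limma adjusted p of these 3 were 0.589, 0.555 and 0.850. The wild-type and mutant readings overlapped in all 4.

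**Figure D3:**
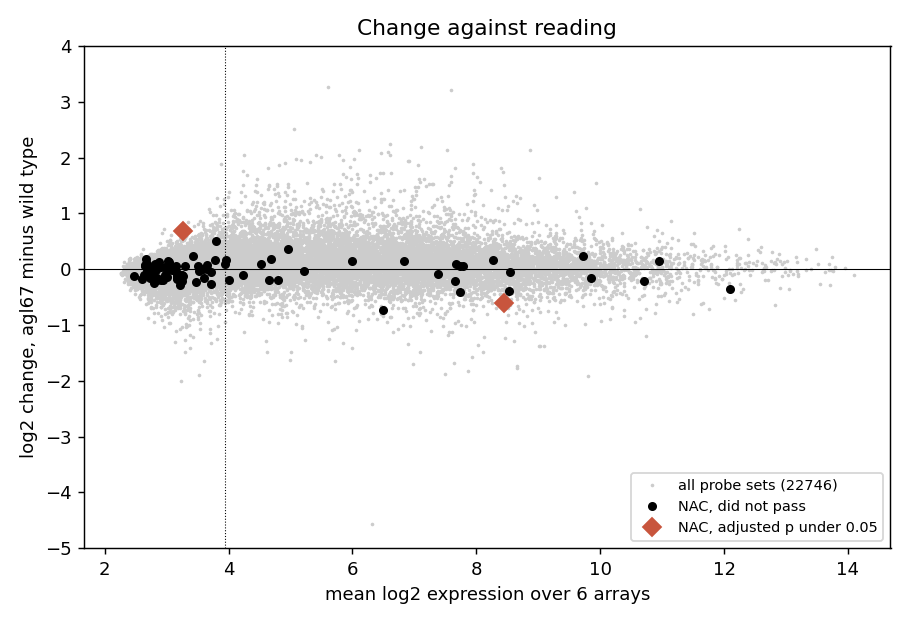
Log2 change (vertical axis, agl67 minus wild type) against the mean log2 expression of 6 arrays (horizontal axis) for all probe sets (grey) and NAC probe sets (black, and red diamonds where they passed); the dotted line is the median reading. Most NAC points lie left of the dotted line, and of the 2 that passed 1 lies on each side.

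Across the family the log2 changes were small. The median was -0.036, with quartiles of -0.15 and 0.08, against a median of 0.024 and quartiles of -0.11 and 0.18 over all probe sets. Of the 87, 36 (41.4%) lay above 0 and 51 below, where 54.9% of all probe sets lay above 0. A log2 change over 0.3 in either direction was seen in 8 NAC probe sets (9.20%) and in 22.6% of all. An unadjusted p under 0.05 was reached by 9 (10.3%), against 16.4% of all probe sets. Both shares differed with brightness, and the family holds more dim probe sets. Among probe sets above the array median on all 6 arrays, 24.0% of NAC and 26.4% of all reached that p. Below the median on all 6 it was 3.77% and 4.62%. Changes over 0.3 were seen in 24.0% and 33.5% of the bright ones and in 1.89% and 5.96% of the dim ones. These differences were not tested. The mutant samples all lay above the wild-type samples in 7 NAC probe sets and all below in 11, or 8.05% and 12.6% (20.7% together), where over all probe sets these shares were 14.9% and 9.16% (24.0% together). For a NAC probe set the 95% interval reached 0.28 to either side in the median. Smaller changes of a typical member could thus not be told from 0 at this number of arrays. The intervals are not adjusted for the number of probe sets, so a change beyond 0.28 need not be called. Changes of 0.50 (253774_at) and -0.74 (265621_at) did not pass at an adjusted p under 0.05.

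The 63 members not described one by one had log2 changes from -0.26 to 0.18, with 28 above 0 and 35 below, and limma adjusted p of 0.456 or more. Their mean readings ran from 2.47 to 7.78, with 45 below the array median on all 6 arrays, 10 above it on all 6 and 8 mixed. In 5 of the 63 (7.94%, against 24.0% of all probe sets) the groups did not overlap, 3 with the mutant higher and 2 with it lower. The share is low by construction, since the members with the smallest p-values are not among the 63.

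The family was also set beside probe sets of like brightness, as a description with no test. Of the 25 NAC probe sets above the array median on all 6 arrays, 11 had a log2 change above 0 (44.0%), with a median of -0.047. Of all probe sets as bright, 62.1% lay above 0, with a median of 0.087. The part of the third wild-type array in that contrast was not tested. The median difference of that array from the mean of the other wild-type arrays was -0.254 over all bright probe sets and -0.111 over the bright NAC probe sets. Without that array the medians were -0.083 for the bright NAC probe sets and 0.002 for all bright ones, with 9 of 25 (36.0%) and 50.3% above 0. Among the 53 dim NAC probe sets the median change was -0.036, and among all dim probe sets it was -0.007.

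The third wild-type array was the lowest wild-type reading in 34 NAC probe sets (39.1%) and the highest in 29 (33.3%), while over all probe sets it was the lowest in 56.8% and the highest in 23.3%. The median gap between it and the other wild-type arrays was -0.001 in the family and -0.139 over the array. Without it 5 NAC probe sets passed in limma, 2 higher and 3 lower, or 5.75% of the family against 6.73% of all probe sets (3.86% higher and 2.87% lower). These were 262514_at, 264148_at, 253774_at, 265621_at and 258921_at, whose values are given above. The family median was -0.033 without it and that of all probe sets -0.014.

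**Figure D4:**
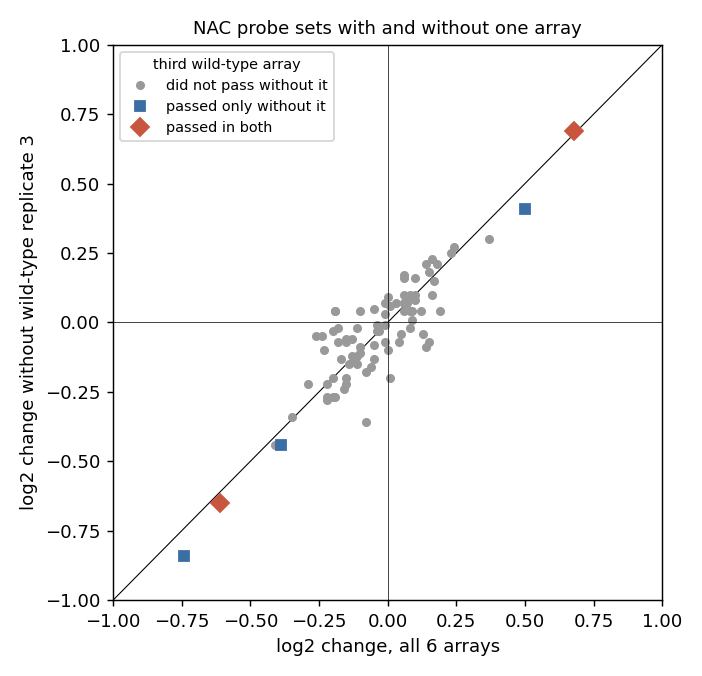
Log2 change of each NAC probe set with all 6 arrays (horizontal axis) and without the third wild-type array (vertical axis); the diagonal marks equal values. The 2 red diamonds passed in both fits, and the 3 blue squares, 253774_at, 258921_at and 265621_at, passed only without that array.

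Other transcription factor families were taken by title to see where the NAC family differs. Of 208 MYB probe sets 3 rose and 0 fell in limma (1.44% called), of 62 WRKY 1 rose and 3 fell (6.45%), of 58 bZIP 3 rose and 0 fell (5.17%), and of 92 bHLH 0 were called (17 at an unadjusted p under 0.05). The NAC share of 2.30% lies among these, and the difference between families was not tested. Median log2 changes were -0.026 for MYB, -0.069 for WRKY, -0.047 for bHLH and 0.010 for bZIP. A change over 0.3 in either direction, seen in 9.20% of NAC probe sets, was seen in 21.2% of MYB, 25.8% of WRKY, 27.2% of bHLH and 25.9% of bZIP probe sets. The share of probe sets below the array median on all 6 arrays was 64.9% for MYB, 58.1% for WRKY, 50.0% for bHLH and 36.2% for bZIP, against the 60.9% of the NAC family.

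**Figure D5:**
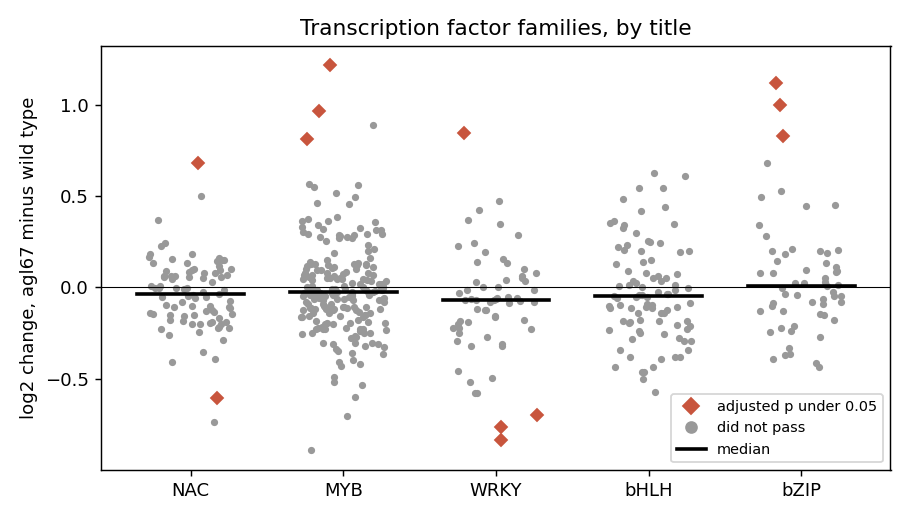
Log2 change (vertical axis, agl67 minus wild type) of each probe set in 5 transcription factor families chosen by title, with those that passed as red diamonds and the family median as a black line. Medians of all 5 lie between -0.069 (WRKY) and 0.010 (bZIP). The NAC points run from -0.74 to 0.68, those of bHLH from -0.57 to 0.63 and those of MYB from -0.89 to 1.22. These ranges rest on the extreme probe sets of families of unlike size. A change over 0.3 in either direction was seen in 9.20% of NAC probe sets and in 21.2% (MYB) to 27.2% (bHLH) of the others.

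Genes that NAC factors are known to act on, or to work with, were listed in 8 groups. Of 96 listed genes 49 were measured, by 50 probe sets, of which 1 rose, 1 fell and 48 did not pass, with a median log2 change of 0.01. That is 4.0% called, against 2.70% of all probe sets, a difference that was not tested. The lists were chosen with earlier results of these data known, so their share is not an independent result. None of 15 measured genes of the secondary wall passed in limma (0 at an unadjusted p under 0.05), and their changes ran from -0.29 to 0.13. These are targets of the vessel and fibre NAC factors, such as the cellulose synthase genes CESA4, CESA7 and CESA8 (0.02, 0.05 and 0.12), and KNAT7, a homeobox gene of the same network, had the smallest p-value of the list (-0.29, adjusted p = 0.506, and -0.07 without the third wild-type array). None of 5 genes of senescence and cell death passed either (0 at an unadjusted p under 0.05), with changes from -0.18 to 0.17, among them the nuclease gene BFN1 at -0.07. The aspartyl protease gene PASPA3 (-0.18, adjusted p = 0.436) had the smallest p-value there.

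In the organ boundary list, whose genes work beside the CUC factors, 1 of 6 probe sets rose and 5 did not pass. KNAT1, a homeobox gene of the shoot meristem, read 4.17, 3.90 and 3.97 in wild type and 4.86, 4.82 and 5.26 in the mutant. The groups did not overlap, and KNAT1 rose by 0.97 (SE 0.15, limma adjusted p = 0.0202). The call was lost when the second wild-type array was left out (0.91, adjusted p = 0.0743) and without any 1 of the mutant arrays (0.83 to 1.05, adjusted p of 0.0805 to 0.0868). CUC1 and CUC2 themselves stayed below the array median on all 6 arrays, as given above.

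In the DNA damage list, of genes controlled by the NAC factor SOG1, 1 of 3 measured genes fell and 2 did not pass. PARP2, for a poly(ADP-ribose) polymerase, read 5.51, 5.34 and 5.23 in wild type and 3.79, 3.84 and 4.00 in the mutant, a log2 change of -1.48 (SE 0.12, limma adjusted p = 0.00336) that passed without any 1 array. The other genes of that list were the mitotic cyclin gene CYCB1;1 (-0.29, adjusted p = 0.213) and BRCA1 (-0.09, adjusted p = 0.768).

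Among 8 measured ABA and stress genes tied to RD26 and its relatives, 0 passed in limma, and 3 had an unadjusted p under 0.05. RD29B, a desiccation gene induced by ABA, read 10.58, 10.77 and 10.74 in wild type and 11.09, 11.07 and 11.45 in the mutant, a log2 change of 0.50 (adjusted p = 0.111), and RD29A had one of 0.41 (adjusted p = 0.192). ERD1, a protease gene that RD26-type NAC factors bind, went the other way at -0.36 (adjusted p = 0.146). Left without the third wild-type array, ERD1 passed at -0.42 (adjusted p = 0.0492). None of 6 mitochondrial stress genes passed (2 at an unadjusted p under 0.05), with the small heat shock gene HSP23.5 at 0.81 (adjusted p = 0.0958) and the alternative oxidase gene AOX1A at 0.03. None of 3 endoplasmic reticulum stress genes passed (1 at an unadjusted p under 0.05), which was BZIP60 at -0.39 (adjusted p = 0.167). Without the third wild-type array BZIP60 passed, with -0.50 (adjusted p = 0.0218). None of 4 germination genes passed (2 at an unadjusted p under 0.05), EXPA2 at 0.84 and EXPA1 at 0.55, expansins that loosen walls, with limma adjusted p of 0.127 and 0.224.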

How the data were processed

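The authors deposited log2 expression values, 1 per probe set and array, and a comparison table whose limma columns hold log2 ratios, p-values and false discovery rates, per the file headers. RMA and limma are the tools that the submitters' processing notes list. The genome build is not given in the sources used here. The 64 control probe sets were left out and no filter or rescaling was applied. limma 3.58.1 in R 4.3.3 was fitted to 6 arrays with genotype as the only term, mutant minus wild type, with Benjamini-Hochberg adjustment over 22746 probe sets and a threshold of 0.05. The deposited comparison table served as an alternative; its 6 columns of values per array were not used. Probe sets were named through the platform's gene table (13436), then through a symbol in the title that names 1 gene in RefSeq of TAIR10.1 and lies on the chromosome of at least 1 of the 10 nearest named probe sets (1755). The fit was tested on simulated data, in which most log2 changes of 0.5 were not recovered. The number of arrays limits the precision. A limma p-value sets the difference between genotypes against the spread between these samples within groups. In eBayes that spread is drawn toward the one typical of all probe sets.

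Members, role lists and target lists were chosen with earlier results of these data known. Named probe sets are those that passed, the next 12 by p-value, the 8 highest mean readings, and the member of each role group with the smallest p-value. From each target list they are the genes that passed or, where none did, that with the smallest p-value. AT3G56520, 258385_at, 258395_at, CUC1, NAC1, TIP and the other list and marker genes named were added after their values were seen. Alternatives were a replicate block, array weights, each array left out in turn, eBayes with an intensity trend or with robust estimation, quantile normalization, median centring and leaving out the dimmest 40% of probe sets.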

Additional observations from a re-analysis of the deposited data

How the results depend on the processing

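The count of NAC probe sets called moved from 2 to 0 with a replicate block (8 at an unadjusted p under 0.05 in limma, with 1.95% of all probe sets called), to between 0 and 5 when 1 array was left out (5 without the third wild-type array, 0 in the other fits, with 7 to 11 at an unadjusted p under 0.05), to 4 with array weights, and to 1 in the authors' deposited table. Without the dimmest 40% of probe sets, which removes 264148_at, it was 1 of 39 (2.56%, against 5.25% of all probe sets left). It was 2 with an intensity trend or robust estimation and 3 with quantile normalization or median centring. Whether the replicate numbers pair the samples is not known. Deviations from the group means of same-numbered arrays correlated at -0.158, 0.145 and 0.217. Those of differently numbered arrays correlated at -0.334 to 0.337, so these values do not settle it. With the block, 262514_at and 264148_at had adjusted p of 0.0632 and 0.0745, and 443 probe sets were called over the array. Over the array the 615 calls became 86 to 1530 when 1 array was left out, 1490 with array weights and 1042 with quantile normalization. The NAC median of -0.036 was -0.104 after median centring, which puts the median of all probe sets at -0.044, and moved by less than 0.047, the SD of the family's array medians within groups, under the other alternatives. It lay below the median of all probe sets under each alternative run. The count of target genes called was 2 with the block and 1 to 4 with 1 array left out. AGL67 passed with the block and without any 1 array (-4.75 to -4.39). Among the 24 NAC probe sets described singly, signs turned for 259705_at without the first mutant array (-0.01, in a range of -0.01 to 0.25 with 1 array left out), CUC2 in the authors' deposited table (0.01) and AT3G56520 without the third wild-type array (0.04, in a range of -0.25 to 0.04). Loss of calls with 5 arrays was not separated from the smaller number of samples. No array carries a call of presence, so readings near the floor cannot be told from background.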
